A study of Mus musculus with 16 samples.

Results

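Platelet genes were followed in blood and in tumour-infiltrating cells of mice with a transplanted hepatoma. The set was a fixed list of 9 genes for granule proteins (Pf4, Ppbp, F13a1, Mmrn1, Thbs1 and Treml1), the platelet tubulin Tubb1 and signalling proteins (P2ry12 and Alox12). Probes were named through their RefSeq accession, and 7 of the 9 genes had a named probe, among 16535 named genes on the array. The 7 genes had 10 probes, 3 for Thbs1, 2 for Alox12 and 1 for each of the others, and all 10 were tested. Mmrn1 (multimerin, an adhesive alpha granule protein) and Tubb1 (the beta tubulin of the microtubule ring that keeps a resting platelet flat) had 0 named probes and were not analysed here. The cytoskeletal arm of the list was therefore not measured.

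Hepa1-6, a mouse hepatoma cell line, had been inoculated under the skin of mice, and samples were taken 10 days later. The labels give C57Bl/6 as the strain and female as the sex of the mice in both channels, and athymic in the treatment text only; they give no age. The 8 blood samples had gone straight into RNAlater, a preservative. The 8 infiltrating samples were a density gradient fraction of mashed tumours, enriched in inflammatory cells but not sorted. Every sample was labelled with Cy5 and hybridised on its own array against blood RNA of untreated C57Bl/6 mice in Cy3. Blood and tumour RNA had been extracted with different kits, no dye was swapped, and the reference counts as 1 control sample. The same 8 sample numbers (889, 890, 891, 893, 894, 896, 897 and 898) occur in both groups. The labels do not say that a number marks 1 animal, so p-values measure the spread between these samples.

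Platelets are fragments of megakaryocytes and have no nucleus, so their RNA is a store made in the parent cell. Alpha granules hold chemokines, clotting and adhesive proteins that are released on activation. ADP released from dense granules acts on P2Y receptors and widens that activation, while arachidonic acid is turned into thromboxane and, by the lipoxygenase Alox12, into hydroxy fatty acids. F13a1 and Thbs1 are not restricted to this lineage, since monocytes and macrophages also express them. In bulk RNA, fewer platelets in a sample and less RNA per platelet cannot be told apart.

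The 7 genes were detected throughout: each gene's main probe lay well above background on all 8 blood and all 8 infiltrating arrays in Cy5. Over all probes, 24.8% to 36.3% were well above background in Cy5 on blood arrays and 51.1% to 65.8% on infiltrating arrays. Ratios of 2 arrays correlated between 0.56 and 0.83 within blood, between 0.80 and 0.98 within infiltrating cells and between -0.31 and -0.08 across the groups. The labels state the dyes, so Cy5 over Cy3 is read as sample over untreated blood. Ratios were normalised by loess, which sets the typical ratio at each brightness to 0. On infiltrating arrays this removed a mean of 0.68 (log2) from the dimmest tested probes and 3.08 from the brightest, against -0.46 to 0.09 on blood arrays. The 10 spike-in control probes, added RNAs that were no part of a sample, came out -3.02 to -1.78 (log2) in infiltrating cells minus blood after loess. Their range was -0.54 to 0.88 when each array was only centred on its median. Results on infiltrating cells are therefore given with median centring, spike-in centring and the deposited ratios beside loess. The median over all 12298 tested genes in infiltrating cells minus blood was 0.08 after loess, 1.46 after median centring, 0.80 after spike-in centring and 0.42 in the deposited ratios.

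Upstream sequence is shown for 3 of the genes that fell in infiltrating cells. Pf4 and Ppbp are neighbours, with 0 genes between them in the RefSeq table, and P2ry12 lies on another chromosome. The windows below hold the 250 bases before each gene's start in RefSeq's GRCm38.p6 annotation, written 5′ to 3′ on the gene's strand. They are chr5:90772185-90772434 (plus strand) for Pf4, chr5:90768268-90768517 (plus strand) for Ppbp and chr3:59262986-59263235 (minus strand) for P2ry12. Capitals mark matches to the words listed after them.
Pf4: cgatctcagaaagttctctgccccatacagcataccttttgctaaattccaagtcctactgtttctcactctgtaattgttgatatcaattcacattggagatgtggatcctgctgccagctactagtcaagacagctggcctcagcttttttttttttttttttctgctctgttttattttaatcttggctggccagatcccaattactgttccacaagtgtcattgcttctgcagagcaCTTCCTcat
Ppbp: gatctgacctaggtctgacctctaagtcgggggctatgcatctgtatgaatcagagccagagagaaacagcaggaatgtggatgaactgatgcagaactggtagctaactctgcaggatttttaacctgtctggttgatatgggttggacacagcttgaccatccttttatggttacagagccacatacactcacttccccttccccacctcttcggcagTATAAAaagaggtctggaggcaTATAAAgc
P2ry12: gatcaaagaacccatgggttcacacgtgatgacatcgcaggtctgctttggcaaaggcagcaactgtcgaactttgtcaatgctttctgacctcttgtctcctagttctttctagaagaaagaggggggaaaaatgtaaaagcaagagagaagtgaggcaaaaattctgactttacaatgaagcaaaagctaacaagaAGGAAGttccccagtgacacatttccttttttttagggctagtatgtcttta
Both strands were searched for the GATA words AGATAA and also TGATAA, each also with a final G (AGATAG, and likewise TGATAG), the ETS words CGGAAG and also AGGAAG, the AP-1 words TGAGTCA and also TGACTCA, and for TATAAA, which was added after the sequences were seen. GATA and ETS proteins are the classical regulators of megakaryocyte genes. An ETS word began 9 bases before the start of Pf4, on the opposite strand, and another began 52 bases before that of P2ry12. F13a1, which was not called lower in infiltrating cells against the reference, held 3 over its 2 RefSeq starts, and Tubb1 held 1. TATAAA occurred 2 times in the Ppbp window, beginning 30 and 8 bases before the start. Among 32851 promoter windows of the same length, 39.2% held an ETS word, 26.5% a GATA word, 12.4% TATAAA and 4.46% an AP-1 word. No words of these kinds lay in the windows of Treml1 and Alox12, and only Mmrn1 among the 8 genes with a window had a GATA word. These matches describe letters and do not show binding.

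The platelet chemokines fell far below untreated blood in infiltrating cells and stayed within the 2-fold limit in blood. Pf4 (platelet factor 4, Cxcl4) binds heparin-like chains, and Ppbp is the precursor of the neutrophil-attracting Cxcl7; both are packed in alpha granules. In blood, the log2 ratio of Pf4 to the reference ranged from -0.64 to -0.04 with a median of -0.29. In infiltrating cells it ranged from -4.92 to -4.23 with a median of -4.57, so the groups did not overlap. The mean was -0.29 ± 0.06 (SE, n = 8) in blood, which passed the test (limma adjusted p = 0.00078) but not the 2-fold limit. In infiltrating cells Pf4 fell by 4.59 ± 0.08 (SE, n = 8; limma adjusted p = 6.5e-11), which is 24.0-fold. Its mean was -2.33 with median centring, -2.97 with spike-in centring and -4.33 in the deposited ratios, and it was called lower in each.

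Ppbp showed the lowest mean ratio of all genes in infiltrating cells. Its log2 ratio ranged from -0.70 to 0.17 in blood, with a median of -0.16, and from -8.25 to -7.25 in infiltrating cells, with a median of -7.65. The highest infiltrating sample thus lay far below the lowest blood sample. Ppbp fell by 7.67 ± 0.10 (SE, n = 8) in infiltrating cells against the reference, 203-fold (limma adjusted p = 3.3e-11). Of 12298 genes, 0 had a lower mean ratio, both after loess and after median centring, where Ppbp stood at -5.51. It stood at -6.14 when centred on the spike-ins and at -8.04 in the deposited ratios. In blood its mean was -0.21 ± 0.08 (SE, n = 8), within the 2-fold limit.

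The neighbouring chemokine genes did not fall equally. On each array the log2 ratio of Pf4 minus that of Ppbp lay between -0.49 and 0.33 in blood, and between 2.74 and 3.61 in infiltrating cells. Without loess the gap was -0.45 to 0.39 in blood and 2.70 to 3.65 in infiltrating cells, so the groups stayed apart under either processing. The gap also differed by slide among infiltrating arrays: without loess it was 2.70 to 2.87 on slide 3 and 3.42 to 3.65 on slide 4. In raw Cy5 units the genes differed too. Ppbp read 10850 to 34480 units in blood, with a median of 17200, and 488 to 1343 units in infiltrating cells, with a median of 875.5. Pf4 read 18110 to 48990 units in blood and 5473 to 31450 units in infiltrating cells, so its raw signal overlapped between the groups. Infiltrating arrays were brighter throughout, with a median over tested probes of 117.5 to 556 units in Cy5 against 16 to 32 units on blood arrays. The Cy3 signal of Pf4, from the shared reference, stayed at 32290 to 46860 units on blood arrays and 38800 to 41490 units on infiltrating arrays.

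**Figure D1:**
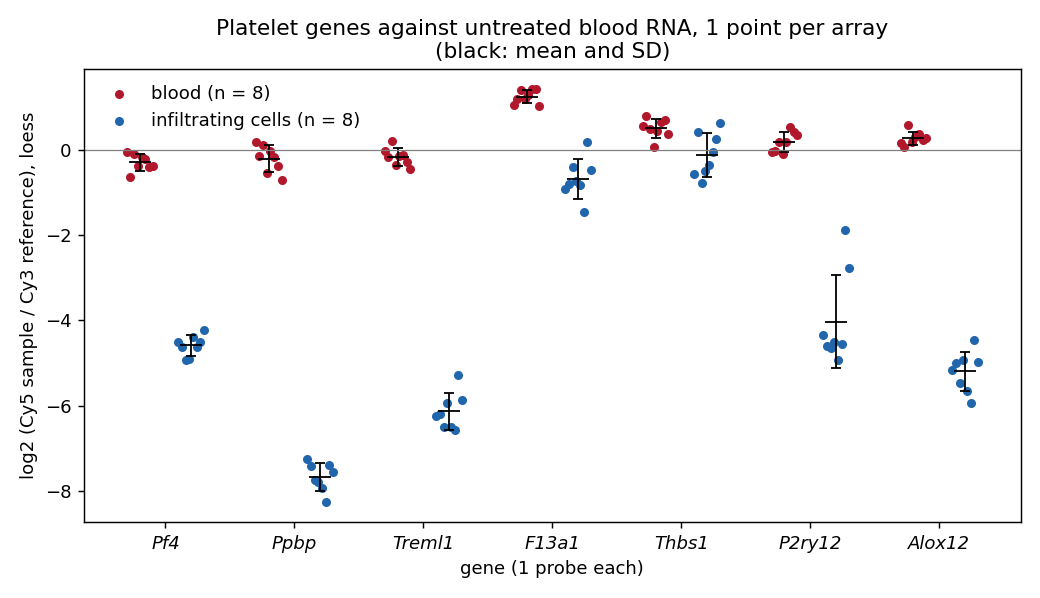
Log2 ratio of Cy5 (sample) over Cy3 (untreated blood) after loess for 7 platelet genes, 1 point per array, with blood in red (n = 8), infiltrating cells in blue (n = 8) and the mean and SD in black. The groups lie apart for all genes but Thbs1, and Ppbp in infiltrating cells is lowest, at -8.25 to -7.25.

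Treml1 encodes a receptor of the TREM family that is stored in alpha granule membranes and brought to the surface on activation. Its log2 ratio ranged from -0.46 to 0.19 in blood, with a median of -0.16, and from -6.57 to -5.28 in infiltrating cells, with a median of -6.22. The groups did not overlap, and sample 897 was the highest of the infiltrating cells. Treml1 fell by 6.14 ± 0.13 (SE, n = 8) in infiltrating cells against the reference (limma adjusted p = 2.1e-10), a 70.3-fold change. Its mean was -4.06 after median centring, -4.69 when centred on the spike-ins and -6.84 in the deposited ratios. In blood the mean was -0.17 ± 0.06 (SE, n = 8). Its Cy5 signal was 2585 to 6817 units in blood and 186 to 805 units in infiltrating cells, without overlap even before any scaling.

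The signalling genes fell as well. Alox12 oxygenates arachidonic acid at carbon 12. Its log2 ratio ranged from 0.05 to 0.57 in blood, with a median of 0.26, and from -5.93 to -4.47 in infiltrating cells, with a median of -5.08. All 8 blood samples lay above 0 and all 8 infiltrating samples far below. Alox12 fell by 5.20 ± 0.14 (SE, n = 8) in infiltrating cells against the reference, 36.7-fold (limma adjusted p = 1e-09). Its mean was -3.15 with median centring, -3.79 with spike-in centring and -5.77 in the deposited ratios. Its other probe stood at -4.73, and at -2.88 with median centring. In blood Alox12 had a mean of 0.26 ± 0.05 (SE, n = 8) after loess and -0.26 after median centring, neither called.

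P2ry12, the ADP receptor that is the target of clopidogrel, was the most variable of the genes that fell. Its log2 ratio ranged from -0.09 to 0.54 in blood, with a median of 0.19, and from -4.94 to -1.90 in infiltrating cells, with a median of -4.53. The groups did not overlap after loess, but samples 897 and 898, at -1.90 and -2.76, stood above the other 6. P2ry12 fell by 4.03 ± 0.33 (SE, n = 8) in infiltrating cells against the reference, 16.3-fold (limma adjusted p = 3e-06). On slide 3 alone the mean was -4.52, and on slide 4, which holds samples 897 and 898, it was -3.54 (n = 4 each). The gene was dim there, at 28.5 to 165.5 Cy5 units against 305 to 1024 in blood. The mean was -2.58 with median centring, -3.21 with spike-in centring and -6.04 in the deposited ratios, called lower in each. In the deposited ratios samples 897 and 898 were at -6.31 and -6.21, no higher than the other infiltrating samples, so that their position depends on the processing. In blood P2ry12 had a mean of 0.18 ± 0.07 (SE, n = 8) after loess and -0.47 after median centring, neither called. Microglia, the macrophages of the brain, also express this receptor.

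F13a1 was the only member called in blood after loess. It encodes the A subunit of clotting factor XIII, a transglutaminase that crosslinks fibrin, and is found in platelets and in monocytes. Its log2 ratio ranged from 1.01 to 1.42 in blood with a median of 1.24, and from -1.46 to 0.17 in infiltrating cells with a median of -0.77. All 8 blood samples lay above every infiltrating sample. In blood F13a1 rose by 1.24 ± 0.05 (SE, n = 8), 2.37-fold (limma adjusted p = 1.5e-10), and was thus the 1 of 7 members called, where 0.504% of all genes were called higher. Its mean was 0.58 after median centring and 0.60 after centring on the spike-ins, which did not reach the 2-fold limit; in the deposited ratios it was 1.44 and called, where 2.65% of all genes were called higher. Its rank moved less: 12267 of 12298 genes had a lower mean ratio than F13a1 in blood after loess, and 12249 after median centring.

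In infiltrating cells the direction of F13a1 against the reference depended on the centring. It was -0.68 ± 0.14 (SE, n = 8) after loess and -0.94 in the deposited ratios, neither past the 2-fold limit. It was 0.64 with spike-in centring, not called, and 1.28 with median centring, called higher, as 55.7% of all genes were. Set against the median of all genes under the same scaling, F13a1 lay at -0.73 after loess, 0.08 after median centring and 0.07 after spike-in centring. The difference of the groups, infiltrating cells minus blood, was -1.93 ± 0.16 after loess (8 against 8 samples; limma adjusted p = 6.7e-09) and 0.70 after median centring. Relative to the all-gene median the latter was -0.76. Raw Cy5 signals overlapped, at 462 to 1184 units in blood and 680 to 4518 units in infiltrating cells.

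Thbs1 was not called in either group after loess. It encodes thrombospondin, a large adhesive glycoprotein of alpha granules that macrophages and fibroblasts also make. Its log2 ratio ranged from 0.07 to 0.79 in blood, with a median of 0.52, and from -0.78 to 0.62 in infiltrating cells, with a median of -0.21, so the groups overlapped. The mean was 0.50 ± 0.06 (SE, n = 8) in blood and -0.13 ± 0.16 (SE, n = 8) in infiltrating cells, neither past the 2-fold limit (limma adjusted p = 1.2e-05 and 0.48). In blood it was -0.16 after median centring, so that its sign there depends on the scaling too. Without loess the sign in infiltrating cells turned: Thbs1 was 1.83 after median centring and 1.20 when centred on the spike-ins, both called higher, as were 55.7% and 37.7% of all genes. Relative to the all-gene median it lay at -0.18 after loess and 0.63 after either of the other scalings. Its raw Cy5 signal was 172 to 454 units in blood and 821 to 8514 units in infiltrating cells. It lay wholly higher there, as 75.5% of all genes did on these brighter arrays. The other 2 probes of Thbs1 were dimmer. In infiltrating cells they read -0.61 and -0.42 after loess, and 0.42 and 0.11 after median centring, below the 1.83 of the main probe.

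Markers of monocytes and macrophages were measured beside these shared genes. Of 20 such genes 18 were tested, and all 18 were well above background on some infiltrating array, against 11 in blood. C1qa, C1qc, Mrc1, Mertk, Msr1, Cd163 and Cx3cr1 were not above background on any blood array in Cy5. The summed Cy5 signal of the list was 18860 to 40210 units in blood and 102800 to 425200 units in infiltrating cells. This sum and those below are raw, and infiltrating arrays were brighter throughout. In raw Cy5 units 75.5% of all genes lay wholly higher there, and the detection counts are open to the same brightness. Lyz2 alone had a mean of 29090 units in blood, where the median sum was 30890. After loess 5 of the 18 were called higher in infiltrating cells than in blood, where 12.1% of all genes were. Only 1 was lower (Lyz2, -1.07), where 11.8% of all genes were. After median centring 16 were higher and 0 lower, where 60.0% of all genes were higher and 2.72% lower. Fibroblast and mast cell genes summed to 153.3 to 530.9 units in blood and 45560 to 231100 units in infiltrating cells, and hepatoma genes to 87.6 to 233.4 and 121200 to 686000 units. Endothelial genes summed to 153.4 to 385 and 327.8 to 1744 units. The part of these cells in the values of F13a1 and Thbs1 was not tested.

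Red cell genes moved with the platelet genes. In infiltrating cells minus blood, 11.8% of all genes were lower and 12.1% higher after loess. With median centring the shares were 2.72% lower and 60.0% higher. Of 17 tested erythroid markers 14 were lower in infiltrating cells than in blood after loess and 0 were higher, with a median of -4.98, and the counts were the same with median centring. Their summed Cy5 signal was 298600 to 681200 units in blood and 67480 to 168100 units in infiltrating cells. Epb42 and Rhag were above background in Cy5 on no infiltrating array, and Klf1 was above it in Cy5 on no array of either group. In blood 0 of the 17 were called. Markers of other blood cells moved the same way after loess: 6 of 8 neutrophil genes (median -1.87) and 5 of 8 lymphocyte genes (median -1.20) were lower in infiltrating cells than in blood, and 0 were higher. With median centring 2 of 8 were lower and 2 of 8 higher in each list, set against 2.72% and 60.0% of all genes. Neutrophil genes summed to 28450 to 86110 Cy5 units in blood and 15030 to 111600 in infiltrating cells. Lymphocyte genes summed to 3266 to 7892 and 4988 to 17520 units. All these sums are raw, and infiltrating arrays were brighter. After loess the B cell gene Ms4a1 was at -5.65 and the T cell gene Cd3g at 0.25, the highest of the list. T cell genes were split: in the Cy5 signal scaled between arrays Cd3e was called lower (-1.76), and Cd3g, at 0.55, was not called. The part of the blood content of the fraction in the fall of the platelet genes was not tested. Of 11 tested endothelial markers 10 were above background on some infiltrating array and 6 on some blood array; Cdh5 was above it on no infiltrating array.

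**Figure D2:**
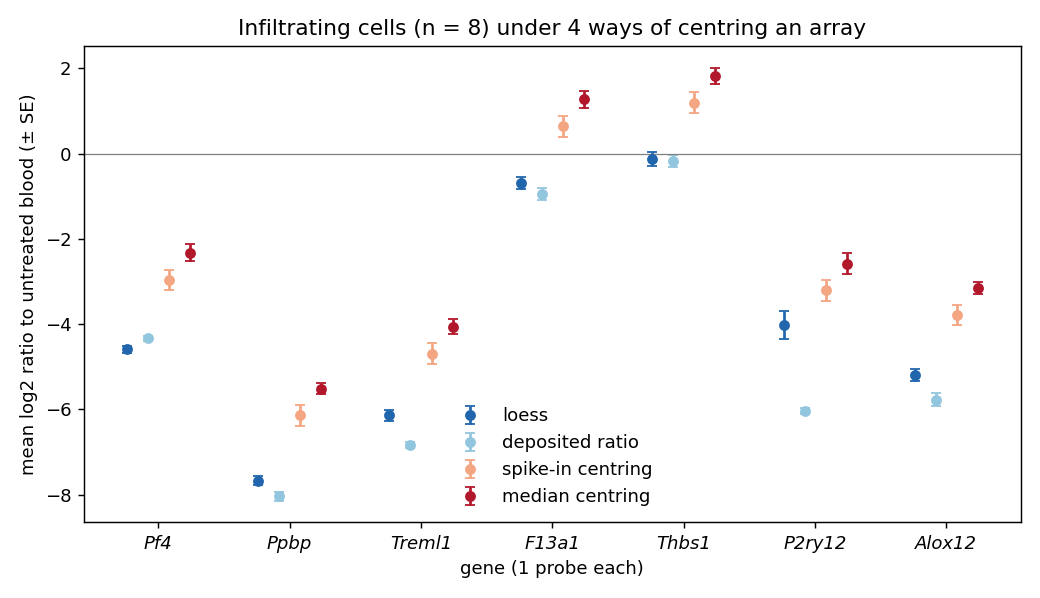
Mean log2 ratio to untreated blood (± SE) of 7 platelet genes in infiltrating cells (n = 8) under 4 ways of centring an array. Pf4, Ppbp, Treml1, P2ry12 and Alox12 lie below -2 under each, while F13a1 and Thbs1 lie below 0 with loess and the deposited ratios and above 0 with the other centrings.

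Over the list, 5 of the 7 measured members fell in infiltrating cells against the reference, where 10.1% of all genes were called lower. The same 5 genes, Pf4, Ppbp, Treml1, P2ry12 and Alox12, were called lower with median centring, where 3.31% of all genes were, with spike-in centring (9.1%) and in the deposited ratios (21.0%). The median over the 7 members was -4.59, against 0.05 over all genes. In infiltrating cells minus blood 6 of 7 were lower after loess, where 11.8% of all genes were, and F13a1 was not called after median centring or when centred on the spike-ins. With median centring 5 were lower, where 2.72% of all genes were, and Thbs1 was higher, as 60.0% were. The Cy5 signal, taken after loess and scaled between arrays, gave 7 of 7 lower in infiltrating cells, where 14.8% of all genes were. The values ran from -7.27 for Ppbp to -1.04 for Thbs1. This signal carries the loess correction and is no separate check on the ratio. Cy5 alone, set to 1 distribution on all arrays without loess, gave 7 of 7 lower. The share of all genes lower under that scaling is not given here, so this count has nothing to be set against. In raw units mean Cy5 was higher in infiltrating cells than in blood for F13a1 (2434 against 782.3) and Thbs1 (3293 against 317.2). When the Cy5 signal was centred on the spike-ins instead, 5 of 7 were lower, F13a1 stood at 0.082, not called, and Thbs1 turned to 1.72, called higher. Of 12298 genes 10330 were called in either direction there, and the shares by direction are not given here. In the scaled Cy5 signal Thbs1 passed the 2-fold limit narrowly and dropped out of the called genes without infiltrating sample 889, 891, 893 or 894 (-0.998 to -0.934).

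The ranges of blood and infiltrating samples did not overlap for 6 of 7 members in the loess ratio, all with infiltrating cells lower; this was so for 17.4% of 12270 genes. In raw Cy5 units they lay apart for 5 of 7, of which Treml1, Ppbp, P2ry12 and Alox12 were lower in infiltrating cells, as 3.16% of genes were, and Thbs1 was higher, as 75.5% were. After median centring infiltrating samples lay wholly below blood for Treml1, Ppbp and Alox12, as for 1.65% of genes, and wholly above it for Thbs1, as for 64.0%. The ranges of Pf4, P2ry12 and F13a1 overlapped.

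The size of the fall after loess ordered the genes. Ppbp fell most, and its range over infiltrating samples overlapped no other member's. Treml1, at -6.57 to -5.28, came next and overlapped with Alox12, at -5.93 to -4.47. Alox12 in turn overlapped with Pf4 and P2ry12, whose ranges overlapped each other. In the deposited ratios P2ry12, at -6.31 to -5.71, lay below Pf4, at -4.53 to -4.14, without overlap, and its mean was below that of Alox12. Among all genes, after loess, 17 had a lower mean ratio than Treml1, 54 than Alox12, 87 than Pf4 and 121 than P2ry12. With median centring these counts were 18, 60, 112 and 100.

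**Figure D3:**
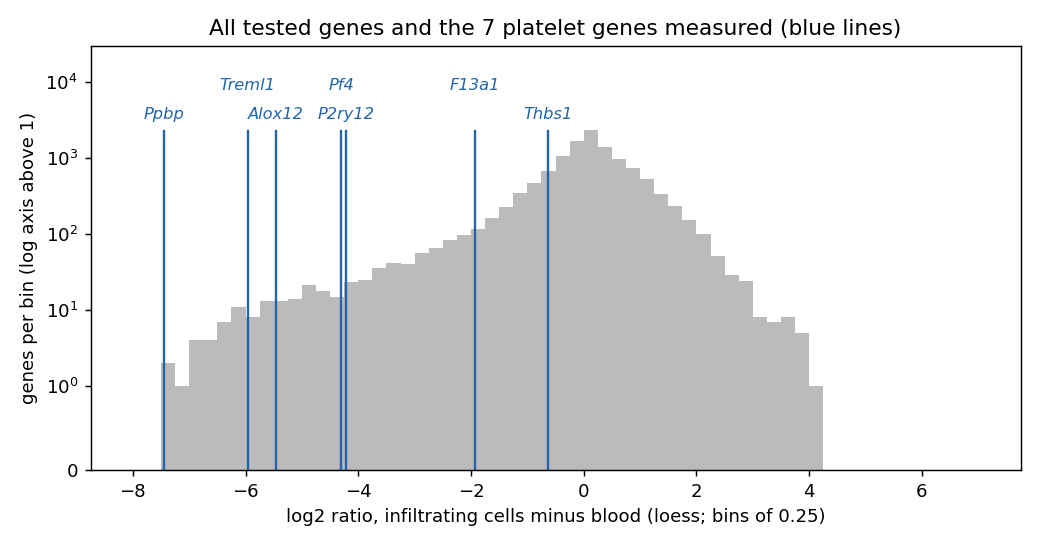
Number of genes per bin (0.25 wide, log axis) of the log2 ratio in infiltrating cells minus blood after loess, over 12298 tested genes, with blue lines at 7 platelet genes. Ppbp stands at the lower end at -7.45, and Thbs1, at -0.63, lies inside the bulk of all genes.

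The genes shared with monocytes were set against the other 5 on the same array, which removes any shift common to an array. F13a1 exceeded the mean of Pf4, Ppbp, Treml1, P2ry12 and Alox12 by 1.01 to 1.51 (log2) in blood, with a median of 1.29. In infiltrating cells it exceeded that mean by 4.52 to 5.45, with a median of 4.82. For Thbs1 the gap was 0.29 to 0.98 in blood, with a median of 0.53, and 4.93 to 5.97 in infiltrating cells, with a median of 5.31. Both genes thus stood apart from those 5 members by more in every infiltrating sample than in any blood sample. Those 5 had been seen to fall, so a gene that did not fall with them would show a wider gap too. The median over all genes in infiltrating cells minus blood was 0.08 after loess. The share of all genes with such a gap was not computed, so the gap cannot be called particular to F13a1 and Thbs1. Without loess the gaps in infiltrating cells were 4.42 to 5.50 for F13a1 and 4.66 to 6.06 for Thbs1, and each infiltrating sample again lay above every blood sample.

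**Figure D4:**
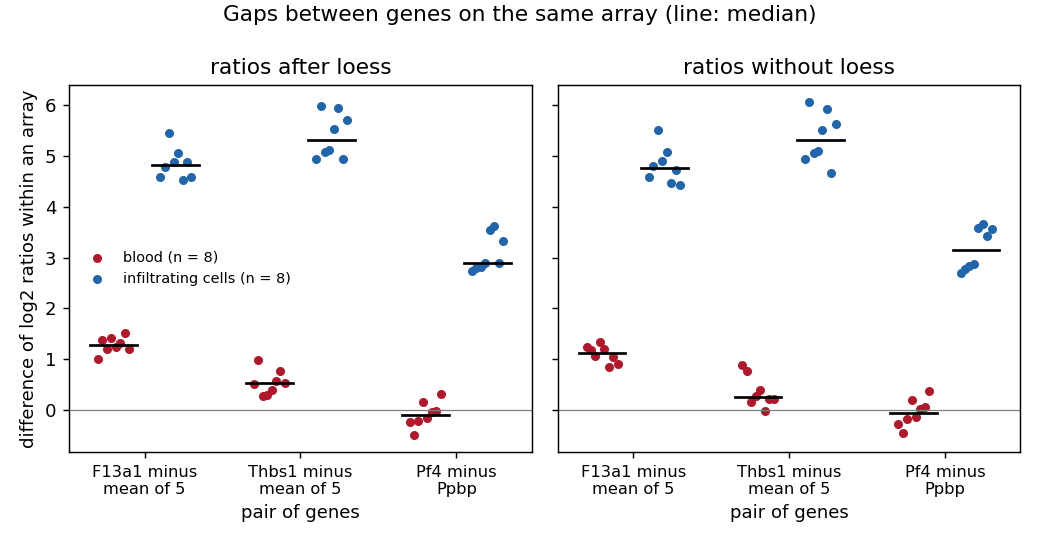
Differences between log2 ratios of genes on the same array, after loess (left) and without it (right), for F13a1 and Thbs1 minus the mean of 5 platelet genes and for Pf4 minus Ppbp, with the median as a line, blood in red and infiltrating cells in blue (n = 8 each). All gaps in infiltrating cells exceed those in blood in both panels; the lowest are 2.74 and 2.70 for Pf4 minus Ppbp.

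Other genes of the platelet pathways were counted from fixed lists. In infiltrating cells against the reference, the share of all genes called was 10.1% lower and 9.33% higher after loess, and 3.31% lower and 55.7% higher with median centring. Of 22 tested genes for granule cargo and membranes, 4 were lower and 5 higher in infiltrating cells against the reference after loess, and 3 lower and 13 higher with median centring. The largest falls were those of Ctla2a (-6.02 ± 0.16), a cysteine protease inhibitor, and Vwf (-5.30 ± 0.10), the adhesive multimer that tethers platelets (SE, n = 8 each). The largest rises were those of Sparc and Pdgfa, both 1.59, a matrix protein and a growth factor that other cells make too; in Cy5, Sparc stayed near background on all 8 blood arrays. In blood 0 of the 22 were called. Of 25 genes for granule assembly and release, 5 were lower and 2 higher after loess and 3 lower and 11 higher with median centring. Sytl4, a granule-docking protein, was called lower but lay above background on 1 of 8 infiltrating arrays, so that its fall has no firm size. The serotonin transporter Slc6a4 fell by 3.75 (5 of 8 arrays). Vamp7 and Ap3b1, membrane traffic proteins, rose by 1.16 and 1.11.

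Of 29 tested cytoskeletal genes, 12 were lower and 0 higher in infiltrating cells after loess, with a median of -0.83 against 0.05 over all genes. With median centring 3 were lower and 15 higher, and their median of 1.06 stood near the 1.20 of all genes. The kinase Mylk, which drives myosin contraction, was lower under both (-3.43 and -1.59), whereas the focal adhesion protein Zyx was -2.52 after loess and -0.30, not called, with median centring. In blood 1 of the 29 was called after loess, where 0.504% of all genes were called higher. It was the Arp complex subunit Arpc1b, which rose by 1.03 after loess and stood at 0.49, not called, with median centring. Of 45 signalling receptors and enzymes, 17 were lower and 2 higher after loess, and 8 lower and 15 higher with median centring. Rgs18, a brake on G protein signalling in platelets, fell by 6.04, and the G protein subunit Gng11 fell by 5.33; with median centring Rgs18 stood at -4.10. Dok2, an adaptor protein, and the thrombin receptor F2r rose by 1.17 and 1.05.

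Adhesion receptors included falls as large as those of the members. Of 14 tested, 9 were lower and 1 higher in infiltrating cells against the reference after loess, with a median of -2.47, and 6 were lower and 2 higher with median centring. Gp9, a subunit of the receptor for von Willebrand factor, fell by 7.13 ± 0.21 (SE, n = 8) and its partner Gp1ba by 5.10 ± 0.38 (SE, n = 8); F11r, a junction protein, rose by 1.63. In blood 3 of the 14 were called after loess, all higher, where 0.504% of all genes were. With median centring 0 were higher and 1 was lower, where 7.19% of all genes were lower. The 3 were the integrin chain Itga2b (1.45 after loess, 0.79 with median centring), Gp5 (1.19 and 0.55) and, named after its value was seen, the integrin chain Itgb3 (1.1 and 0.43). The 5 members that fell in infiltrating cells stayed between -0.29 and 0.26 in blood after loess. With median centring all 5 lay below 0 in blood, and none was called. They stood at -0.69 (Treml1), -0.63 (Pf4), -0.59 (Ppbp), -0.47 (P2ry12) and -0.26 (Alox12), against a median of -0.16 over all genes.

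Samples of a group were asked whether the members moved with Pf4, in 6 relations per group. In blood the loess ratios of Treml1, Ppbp and Alox12 had Pearson's r of 0.61, 0.60 and 0.60 with Pf4 over 8 samples. Their Spearman's rho was 0.71, 0.67 and 0.45, and without the 2 samples farthest from the median of Pf4 r was 0.89, 0.91 and 0.83. In the exact permutation test (two-sided) none of the 6 passed in blood, with adjusted p of 0.23 for these 3 (raw p = 0.11, 0.12 and 0.11). In infiltrating cells none of the 6 passed either; the lowest adjusted p was 0.59, for Thbs1 (r = 0.63, rho = 0.62, exact raw p = 0.098; r = 0.13 without 2 samples). At an unadjusted p under 0.05 the count was also 0 in both groups. With median centring 6 of 6 passed in blood (r from 0.84 to 0.99) and 3 of 6 in infiltrating cells. In the deposited ratios 0 of 6 passed in either group. There P2ry12, among those 3, turned from an r of 0.80 to -0.72 (exact permutation p = 0.047 raw and 0.28 adjusted). In blood Alox12 and Ppbp reached exact raw p of 0.026 and 0.034 (adjusted 0.10 each). The relations thus depend on the scaling. Median centring leaves in the part of an array's shift that varies with brightness, which genes of like brightness share. Its part in the relations that passed was not tested. The share of all genes passing with Pf4 was not computed, so these relations cannot be called particular to the members. Slides held 4 arrays each, too few to give the relation within a slide.

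The genes most like the platelet members over all 16 arrays were found by the root mean square distance between log2 ratios, each centred on its own mean. The reference was the mean of Pf4, Ppbp, Treml1, P2ry12 and Alox12, and the median distance of 12270 genes was 2.80. This reference stood at -0.05 in blood and -5.52 in infiltrating cells. The distance therefore mainly ranks genes by their difference between the groups, and does not show likeness from sample to sample within a group. The 10 nearest other genes were Vwf (0.14), Hbq1a (0.15), 2610524H06Rik (0.17), Epb41 (0.18), Tmem40 (0.21), Fam83f (0.22), Rnf11 (0.24), Car2 (0.25), Adora2a (0.27) and Dcaf12 (0.28). Hbq1a is a globin, Epb41 a red cell membrane protein and Car2 a carbonic anhydrase abundant in red cells. All 10 were among the 50 nearest with median centring too. Among the members themselves the distance was 0.16 for Alox12, 0.27 for Treml1, 0.65 for Pf4, 0.80 for P2ry12 and 1.02 for Ppbp, which all entered the reference. It was 1.79 for F13a1 and 2.45 for Thbs1, which did not.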

How the data were processed

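Ratios came from 16 Agilent mouse arrays with 2 colours. Median pixel intensity values of each spot and its local background were taken from the deposited scanner files. Per the file headers these came from Feature Extraction 10.5.1.1, and per the submitters' processing notes from version 9.1.3.1. The deposited log10 ratio had been background-subtracted and dye-normalised by that program, per the file headers, and was turned to log2 as an alternative. The series' value table differed from it by 0.

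Background was corrected by normexp (offset 50) and loess was applied to each array's ratios (limma 3.58.1, R 4.3.3), with flagged and control spots at weight 0. Spots of a probe were averaged to 41174 probes. Accessions were matched without version to a RefSeq table of GRCm38.p6, and 23374 probes had 1 symbol. The array was designed on an older assembly, so probe coordinates were left out. Tests covered probes that passed the program's background test in Cy5 on 4 or more of a group's 8 arrays, or in Cy3 on 8 or more of 16. This left 26494 probes and 12298 genes, each represented by its brightest probe. A call needed a p under 0.05 after Benjamini-Hochberg adjustment across the tested probes, and a change of at least 2-fold. Each group's ratios were tested against 0, and the groups against each other, with limma (lmFit and eBayes). The ratio against 0 leaves out the spread among untreated mice and keeps any dye bias. Mean spot intensities had been planned, but the files used here give medians. The scripts were tested on simulated data.

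The members and the 17 gene lists were chosen with earlier results of these data known. Named genes are all members, up to 2 called rises and falls per pathway list and comparison, the 2 brightest genes of marker lists and the 10 nearest genes; other markers were named after their values were seen. Correlations were tested over all 40320 permutations in Python with scipy 1.17.1. Alternatives covered the centring, deposited ratios, background, dim probes, probe choice, slides, left-out samples and the replicate block.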

Additional observations from a re-analysis of the deposited data

Results flagged for a closer look

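For 6 of the 7 measured members the effect against the common reference differed between infiltrating cells and blood by limma's test of the difference itself (8 against 8 samples). After loess 11.8% of all genes were lower by the same rule. The difference was -7.45 (log2) for Ppbp, -5.96 for Treml1, -5.46 for Alox12, -4.30 for Pf4, -4.21 for P2ry12 and -1.93 for F13a1. With median centring it was -4.92, -3.37, -2.89, -1.70 and -2.10 for Ppbp, Treml1, Alox12, Pf4 and P2ry12, and 0.70, not called, for F13a1. No sample stood far enough from the others to pass Dixon's test in the 14 sets of a member and a group, in which chance flags about 1 in 20.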

How the results depend on the processing

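Values of Pf4, Ppbp, Treml1, P2ry12 and Alox12 kept their call in all 415 recomputed results, with no reversal of a call. Of 581 recomputed values of the 7 members, 9 reversed and 6 lost a call, all of F13a1 or Thbs1. With median centring F13a1 was 1.28 and Thbs1 1.83 in infiltrating cells against the reference, and 0.70 and 1.99 in infiltrating cells minus blood. With spike-in centring Thbs1 was 1.20 against the reference, and F13a1 0.046 and Thbs1 1.34 in the difference; in the Cy5 signal centred on spike-in controls F13a1 was 0.082 and Thbs1 1.72. Calls over all genes in blood moved from 92 to 894 (median centring), 835 (spike-in centring), 956 (deposited ratios), 53 (no background correction), 270 (subtraction with a floor), 61 (slide 1) and 152 (slide 2), and member calls from 1 to 0 with median and spike-in centring. In infiltrating cells they moved from 2392 to 7260, 5755, 5759 and 4272 (subtraction), and in the difference from 2935 to 7711, 6768, 7006 and 5132, in the same order. In the Cy5 signal 4077 became 10330 with spike-in centring. Relations with Pf4 past the threshold went from 0 to 6 in blood, with Thbs1 turning from -0.18 to 0.84, and from 0 to 3 in infiltrating cells, with median centring. Leaving out a sample gave 75 to 105 calls in blood, 2312 to 2625 in infiltrating cells, 2846 to 3193 in the difference and 4032 to 4134 in Cy5, with 1, 5, 6 and 6 to 7 members called. The cause of these changes was not tested.

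With the sample number as a replicate block, 6 members were called in the difference and 7 in Cy5, as without it. Deviations of same-numbered samples from their group means correlated at -0.17 to 0.20, over 0.1 in 4 of 8 numbers, and the labels state no pairing, so the numbers were not treated as pairs. As a hint from the data the other way, 5 of 8 correlated best with their own number. Each slide holds 1 group; with slide as a random block 6 members were called too. Dim probes limit P2ry12 in infiltrating cells, and 1 reference sample limits every ratio.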

Other observations

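Close relatives of the members were measured beside them. Of 29 tested paralogs, 7 were higher and 4 lower in infiltrating cells than in blood after loess, where 12.1% of all genes were higher and 11.8% lower. With median centring 16 were higher, against 60.0% of all genes, and 0 lower. Cxcl10, an interferon-induced chemokine of the family of Pf4, had 0 of 8 blood arrays well above background in Cy5 (a mean of 12.2 units) and had a mean of 21390 units in infiltrating cells. In the Cy5 signal scaled between arrays it was at least 30.7-fold higher there (limma adjusted p = 2.1e-17 for that signal), while its loess ratio differed by 3.87 (log2). For the Cy5 bound, a dim array's signal was raised to the lowest signal that any probe above background had on it, where it was lower. Tubb6, another beta tubulin, rose by 2.80 ± 0.09 (SE, 8 against 8 samples) after loess and by 5.38 with median centring. Tubb2a turned with the scaling, from -1.58 after loess to 1.14, called higher, with median centring. Tgm3, a transglutaminase related to F13a1, was not well above background on any infiltrating array. Its Cy5 signal was at least 3.73-fold lower there by the same bound, and its loess ratio differed by -1.15 (log2) and was not called with median centring.

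Megakaryocyte transcription factors were mostly lower in infiltrating cells than in blood after loess (9 of 12 lower, 0 higher). Over all genes 11.8% were lower and 12.1% higher. With median centring 2 of the 12 were lower and 2 higher, where 2.72% of all genes were lower and 60.0% higher. Nfe2, which drives platelet release, fell by 3.67 ± 0.22 and Tal1 by 3.60 ± 0.38 (SE, 8 against 8 samples) after loess, and by 1.14 and 2.08 with median centring. Tal1 was above background on 4 of 8 infiltrating arrays. In blood against the reference 0 of the 12 were called after loess. With median centring 2 were lower there, where 7.19% of all genes were.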
